A study of Mus musculus with 12 samples.

Results

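The cholesterol synthesis and SREBP control genes are 29 genes taken by symbol from a list made with earlier results of these data known, and all 29 were found among the 25033 entries of the Ribo-seq table. They comprise 8 enzymes from acetoacetyl-CoA to squalene, 1 enzyme of the prenyl side branch, 10 enzymes from squalene to cholesterol, 7 genes that control the SREBP transcription factors, and 3 sterol transport genes. The livers came from male C57BL/6 mice aged 16 weeks. Those of the HFD group had eaten a high-fat diet for 8 weeks from week 8, and those of the LYC group the same feed with lycopene, a carotenoid of tomato, mixed in. Both groups therefore ate the high-fat diet, and a group on standard feed was not analysed here. For the LYC samples the treatment entry mentions no lycopene, which is taken from the sample titles and the study's methods. Each group had 3 Ribo-seq libraries, HFD1 to HFD3 and LYC1 to LYC3. The labels speak of groups pooled before library construction, whereas the study calls the libraries biological replicates. The p-values measure the spread between these libraries, which may therefore be technical. Ribo-seq reads the RNA fragments that ribosomes shield from nuclease, and a gene's level is given in RPKM, its reads divided by gene length and library size, which allows levels to be compared between genes per length.

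Cholesterol is built in the liver from acetyl-CoA through mevalonate, squalene and lanosterol. The transcription factors SREBP-1 and SREBP-2 are made as precursors in the endoplasmic reticulum membrane, bound to the escort protein SCAP. When sterols are plentiful, INSIG proteins hold SCAP in the endoplasmic reticulum. When sterols fall, SCAP carries the precursors to the Golgi, where the site-1 and site-2 proteases, encoded by Mbtps1 and Mbtps2, release the active factors, which switch on the synthesis enzymes.

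The depth differed with the group. Library totals recovered from the RPKM steps were 2726202, 4405541 and 834410 reads in HFD1 to HFD3 and 394461, 311050 and 412116 reads in LYC1 to LYC3. The 29 genes together held 3061 to 16877 reads in a HFD library and 688 to 954 in a LYC library. Depth and diet cannot be told apart in this design. The second deposited table, labelled RNA-seq, did not behave as a set of separate libraries. Among genes with at least 5 reads, 76.1% to 77.2% had identical read numbers in the LYC library of the same number, against at most 4.68% in the next most similar library. The HFD libraries matched in another order (18.0% to 40.4% identical, against at most 1.88%), with Ribo-seq HFD1 matching HFD3 of the second table, HFD2 matching HFD1 and HFD3 matching HFD2. The second table is therefore given only as another count of the same libraries, and footprints per mRNA were not tested. Summed hepatocyte markers (7 of 8 in the table, Alb among them) lay between 51469.3 and 58008.1 RPKM in HFD and between 35871.5 and 44766.7 RPKM in LYC. Most of that sum was Alb and Apoa2. In unscaled RPKM, 5 of the 7 markers (Alb, Ttr, Apoa2, Serpina1c and Fgb) were lower in LYC without overlap, a pattern of 27.4% of all genes tested. Apoa1 and Cps1 lay above HFD. After the scaling described below, log2 fold changes of the 7 ran from -0.83 (Serpina1c) to 1.07 (Cps1), with Ttr at -0.03. Of these, 5 were below 0 and 2 above. None was called lower, and Cps1, a urea cycle enzyme, was called higher (log2 fold change 1.07, adjusted p = 0.057, limma). Of the 6 intestinal epithelium markers, Fabp2 was called higher (1.21), Apoa4 was not called, and Vil1, Cdx1, Cdx2 and Lct were not tested. The 5 cholangiocyte markers summed to 15.4 to 25.0 RPKM in HFD and 2.89 to 9.25 RPKM in LYC, and none was tested. Most of that sum was Spp1, on 1, 4 and 3 reads in LYC1 to LYC3. The pancreatic acinar markers summed to 7.80 to 14.1 RPKM in HFD and 0 to 6.88 RPKM in LYC, and none was tested. Nearly all of it was Cela1, on 3, 0 and 1 reads in LYC1 to LYC3. Both sums thus rest largely on a single gene with few reads in LYC. Macrophage, stellate, endothelial, lymphocyte, intestinal and erythroid sums overlapped between the groups. The part of hepatocyte content in the results was not tested, and in bulk liver fewer cells of a type and fewer footprints per cell cannot be told apart.

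Promoter sequence was matched by symbol for 24 of the 29 genes in RefSeq windows of GRCm38.p6, the build of the files, from 250 bases before to 50 after each transcription start. Fdps, Fdft1, Sqle, Stard4 and Npc1 had no entry. Motifs were searched on both strands: TCACNCCAC (sterol regulatory element core, the binding site of SREBPs), CCAAT (the NF-Y box), GGGCGG (the GC box of Sp1) and CANNTG (the E-box). None of the motifs is contained in another. The sterol regulatory element core was in 1 of the 24 genes, Hmgcs1, and in 1.44% of all 27025 genes of the table. CCAAT was in 20 of the 24 genes (83.3%) and in 41.1% of all genes. GGGCGG was also in 20 of the 24 genes, and in 38.2% of all genes, whereas CANNTG was in 20 of the 24 genes and 75.0% of all genes. Counted over single windows, CCAAT was in 65.6% of 32 windows of these genes and in 37.4% of all 32851 windows. These matches are a description of letters in these windows. The 250 bases before the start are shown for Hmgcs1, the gene with the sterol regulatory element core, for Insig1 and Insig2, paralogous sensors that are compared below, and for Dhcr7, Scap and Mbtps1, whose footprints differed most between the groups. Each is written 5′ to 3′ on the gene's strand, with matches to TCACNCCAC, CCAAT or GGGCGG on either strand in capitals. For genes with several windows, the window with the most CCAAT and then GGGCGG matches is shown. The windows lie at chr13:119690101-119690350, plus strand (Hmgcs1), chr7:143829964-143830213, plus strand (Dhcr7), chr5:28071162-28071411, plus strand (Insig1), chr1:121332590-121332839, minus strand (Insig2), chr9:110333106-110333355, plus strand (Scap) and chr8:119558762-119559011, minus strand (Mbtps1).
Hmgcs1: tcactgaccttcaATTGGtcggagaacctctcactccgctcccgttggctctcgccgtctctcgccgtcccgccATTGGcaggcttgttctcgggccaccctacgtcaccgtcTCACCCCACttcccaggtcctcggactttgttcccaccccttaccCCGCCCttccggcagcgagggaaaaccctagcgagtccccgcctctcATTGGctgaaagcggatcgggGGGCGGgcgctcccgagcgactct
Dhcr7: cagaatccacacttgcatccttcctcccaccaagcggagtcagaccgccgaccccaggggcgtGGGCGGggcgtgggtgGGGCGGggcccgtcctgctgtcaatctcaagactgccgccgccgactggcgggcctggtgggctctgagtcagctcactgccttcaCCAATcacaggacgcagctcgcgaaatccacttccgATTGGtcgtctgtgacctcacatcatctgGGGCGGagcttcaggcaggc
Insig1: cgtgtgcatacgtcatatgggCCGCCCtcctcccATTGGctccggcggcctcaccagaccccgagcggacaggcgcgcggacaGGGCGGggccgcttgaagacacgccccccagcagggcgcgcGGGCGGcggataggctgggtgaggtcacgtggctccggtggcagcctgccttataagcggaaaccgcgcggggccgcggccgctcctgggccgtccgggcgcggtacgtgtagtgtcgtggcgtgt
Insig2: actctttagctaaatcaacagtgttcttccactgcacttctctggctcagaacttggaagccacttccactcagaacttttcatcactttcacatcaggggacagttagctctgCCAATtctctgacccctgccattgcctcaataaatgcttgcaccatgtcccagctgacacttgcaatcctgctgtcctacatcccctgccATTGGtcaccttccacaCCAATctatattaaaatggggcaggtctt
Scap: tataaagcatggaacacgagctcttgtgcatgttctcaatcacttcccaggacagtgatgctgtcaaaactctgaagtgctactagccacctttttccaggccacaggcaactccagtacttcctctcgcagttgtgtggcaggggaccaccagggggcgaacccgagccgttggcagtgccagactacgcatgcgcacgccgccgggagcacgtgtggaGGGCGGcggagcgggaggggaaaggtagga
Mbtps1: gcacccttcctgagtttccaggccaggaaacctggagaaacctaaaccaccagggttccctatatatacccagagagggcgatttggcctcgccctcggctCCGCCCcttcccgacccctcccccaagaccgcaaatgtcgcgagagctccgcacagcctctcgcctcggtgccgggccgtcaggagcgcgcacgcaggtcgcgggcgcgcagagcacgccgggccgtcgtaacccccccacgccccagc
The Hmgcs1 window holds the sterol regulatory element core starting 137 bases before the transcription start, with CCAAT matches starting 237, 176 and 45 bases before it. The Dhcr7 window holds CCAAT matches at 85 and 49 bases and GGGCGG matches at 187, 171 and 20 bases. The Insig2 window holds 3 CCAAT matches, at 136, 46 and 29 bases, and no GGGCGG match, though both other Insig2 windows hold GGGCGG. The only Insig1 window holds 1 CCAAT match before the start, at 216 bases, and 3 GGGCGG matches. The Scap and Mbtps1 windows hold no CCAAT match and 1 GGGCGG match each, at 30 and 149 bases.

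Footprint levels of the synthesis genes spanned a wide range in the HFD livers. Sc5d, the lathosterol oxidase near the end of the pathway, was highest with 179.9 ± 25.0 RPKM (mean ± SD, n = 3), above 97.7% of all genes with a read. It was followed by Insig2 with 123 ± 20.3, Insig1 with 118 ± 16.7, Hmgcs1 with 101 ± 9.13 and Fdps with 100.3 ± 24.9 RPKM, neighbours whose spreads overlap. At the low end stood Lss, the cyclase that closes the sterol rings, with 5.50 ± 1.06 RPKM, Mvk with 4.13 ± 1.13, Mbtps2 with 2.17 ± 0.611 and Ggps1 with 1.68 ± 0.145 RPKM. Npc1l1, the intestinal sterol importer, had 0 reads in all 6 libraries. A count of 0 allows up to 3 reads in a library, of 4405541 in the deepest and 311050 in the shallowest. Mvk, Mvd, Ggps1, Mbtps2 and Npc1l1 did not pass the filter on low reads, so 24 of the 29 genes were tested. Of these, Mbtps1, Srebf2, Sqle and Tm7sf2 reached the filter's limit in 3 HFD but only 2 LYC libraries, and Pmvk in 2 HFD and 3 LYC libraries, so that their passing rests more on the group where they are high. Of all 5786 genes tested, 2268 reached the limit in fewer than 3 LYC libraries.

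**Figure D1:**
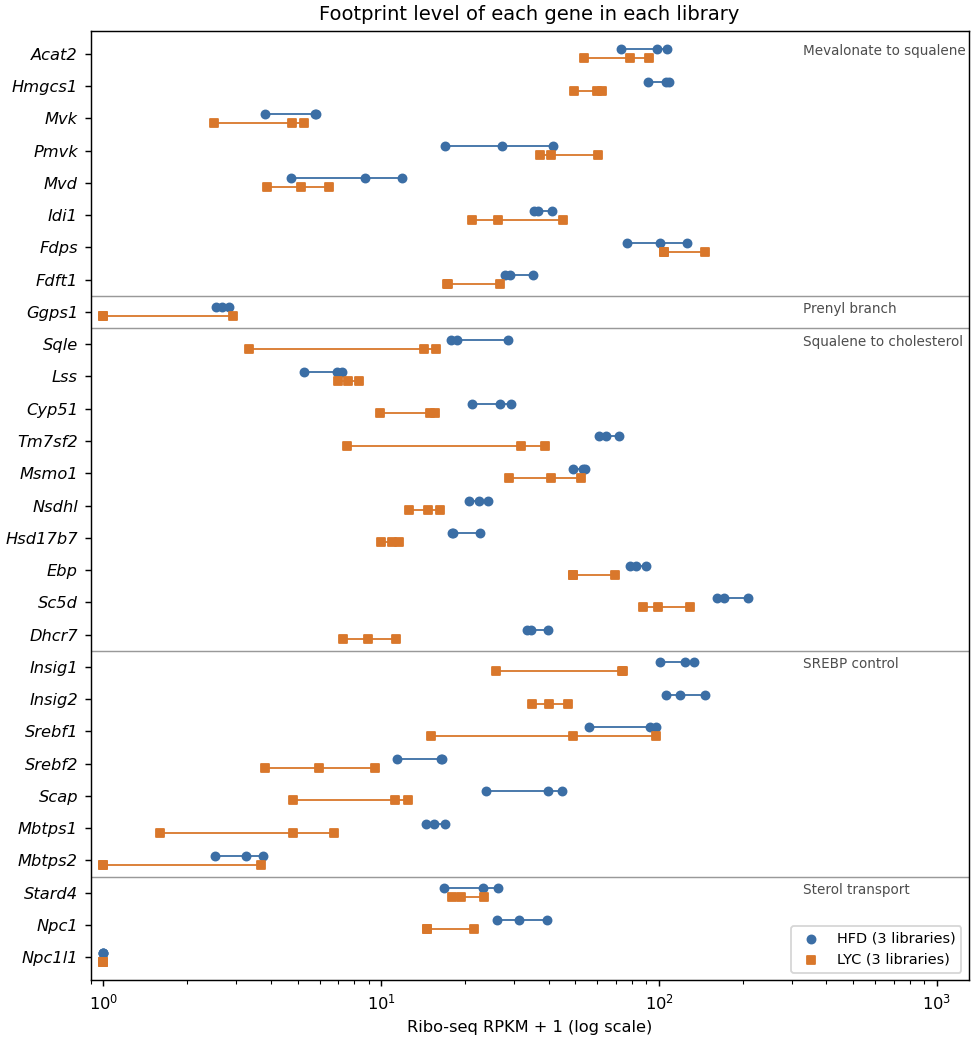
Ribo-seq RPKM plus 1 on a log axis for the 29 genes, grouped by role, with 1 point per library (circles HFD, squares LYC) and lines joining the lowest and highest library of a group. In these unscaled values the groups do not overlap for 16 of the 24 genes tested, all lower in LYC, as for 27.4% of all genes tested. Dhcr7, Insig2, Scap and Mbtps1 are among the 16. Ggps1 and Mbtps2 reach 0 in LYC libraries and Npc1l1 is at 0 in all.

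Footprints of 4 genes fell in the LYC livers and those of no gene rose past the thresholds. The genes that fell were Dhcr7, the final reductase of the route through 7-dehydrocholesterol, the sterol sensor Insig2, the escort Scap and the site-1 protease gene Mbtps1. The call required a log2 fold change beyond 1 in either direction with p under 0.01 before adjustment in limma, and all 4 also had an adjusted p below 0.05. Of all 5786 genes tested, 6.39% were called lower and 6.84% higher. Of the 24 genes, 4 were called lower and 0 higher. By role, 3 of the 6 tested SREBP control genes were called lower, against 1 of the 16 tested synthesis enzymes and 0 of the 2 tested transport genes. The difference between these shares was not tested, and of the control genes Mbtps1 and Srebf2 reached the filter's limit in only 2 LYC libraries. The median log2 fold change over all genes tested was -0.11. The log2 fold change was below 0 for 20 of the 24 genes and for 3201 of all 5786. Unscaled RPKM did not overlap between the groups for 16 of the 24 genes, all lower in LYC, a pattern seen in 27.4% of all genes tested. After scaling by the trimmed mean of M-values (TMM), 11 genes were still lower in LYC without overlap (19.2% of all genes tested), and Pmvk and Lss were higher without overlap, as were 18.5% of all genes tested. The TMM factors, 1.03 to 1.26 in HFD and 0.80 to 1.01 in LYC, move fitted differences towards higher values in LYC than the ratio of mean RPKM. With library totals in place of TMM factors the median of all genes was -0.36 and the share of calls that were higher went from 51.7% to 26.6%, but the same count of 4 lower and 0 higher was found here.

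**Figure D2:**
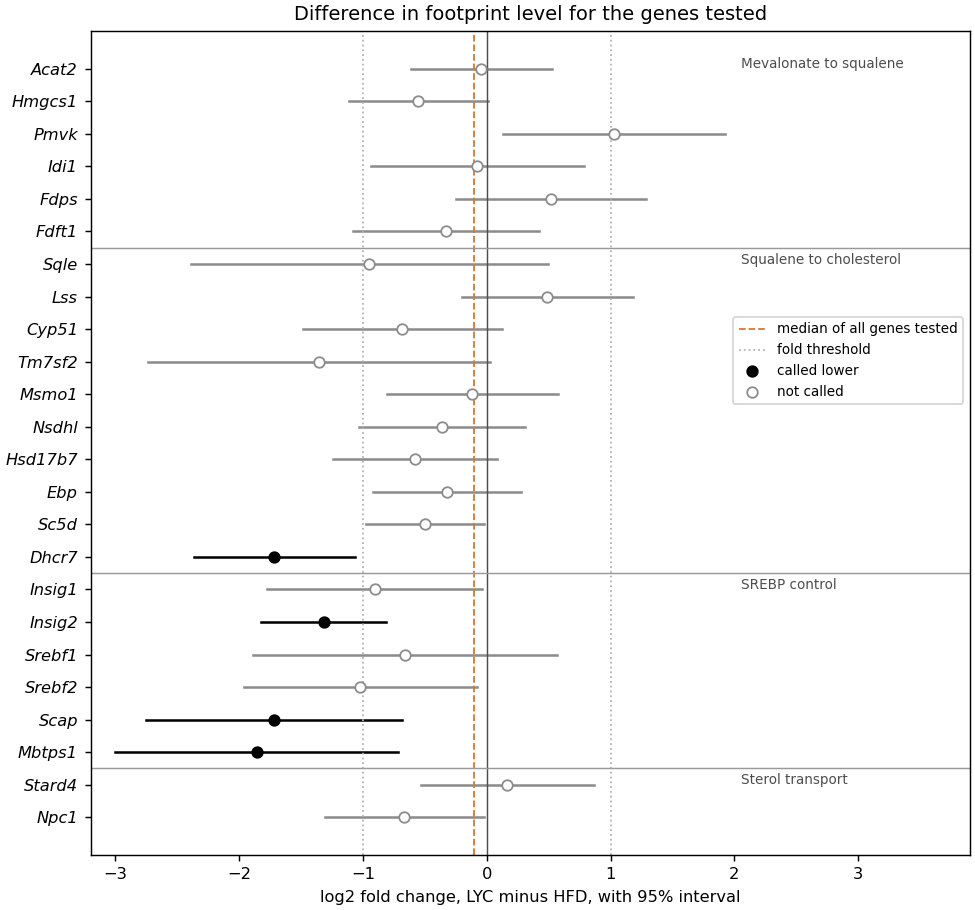
Log2 fold change of LYC minus HFD with its 95% interval for the 24 genes tested, ordered by role, with filled points for calls, a dashed line at the median of all genes tested and dotted lines at the fold threshold. The 4 filled points, Dhcr7, Insig2, Scap and Mbtps1, lie between -1.32 and -1.86, and the interval of every early enzyme other than Pmvk reaches both sides of 0.

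Among the sterol sensors, Insig2 (chromosome 1, 121304353 to 121332662) had 118, 145 and 105 RPKM in HFD1 to HFD3 and 33.7, 39.1 and 46.1 RPKM in LYC1 to LYC3, so that the groups lay far apart. Behind them stood 843, 1679 and 231 reads for HFD, and 35, 32 and 50 reads for LYC. Its paralogue Insig1 (chromosome 5), itself a well-known target of SREBPs, had 132, 99.9 and 123 RPKM in HFD and 24.9, 72.8 and 72.4 RPKM in LYC. All 3 LYC libraries were below all HFD libraries, but LYC1 stood well below the other LYC libraries. The log2 fold change of Insig1 was -0.91 (95% interval -1.77 to -0.04, adjusted p = 0.154, limma) and missed the call, and it was -0.49 without LYC1. That of Insig2 was -1.32 (-1.83 to -0.81). The ratio of Insig2 to Insig1 within a library, which needs no scaling, was 1.07 ± 0.334 in HFD and 0.843 ± 0.446 in LYC and overlapped (exact permutation p = 0.4, two-sided, n = 3 and 3).

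Scap (chromosome 9), the escort that INSIG proteins retain, had 22.7, 43.7 and 38.9 RPKM in HFD and 10.2, 3.80 and 11.5 RPKM in LYC. Every HFD library was above every LYC library, and LYC2 was the lowest. Its log2 fold change was -1.72 (standard error 0.45, adjusted p = 0.044, limma), and the LYC values rest on 17, 5 and 20 reads. Mbtps1 (chromosome 8), the protease that makes the first cut in the SREBP precursor, had 13.5, 16.0 and 14.5 RPKM in HFD and 0.60, 3.80 and 5.74 RPKM in LYC. The HFD libraries were close to each other, whereas the LYC libraries rest on 1, 5 and 10 reads. For the single read in LYC1 the 95% exact Poisson interval reaches from 0.0152 to 3.34 RPKM, for counting error only, still below each HFD library. The log2 fold change of Mbtps1 was -1.86 (standard error 0.50, adjusted p = 0.048, limma). Mbtps2, which makes the cut that frees the factor, had 1.53, 2.74 and 2.25 RPKM in HFD and 0, 2.68 and 0 RPKM in LYC. With 0, 4 and 0 reads in LYC, Mbtps2 did not pass the filter and was not tested.

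The transcription factor genes themselves were less even. Srebf1 (chromosome 11), which encodes the SREBP-1 forms that drive fatty acid synthesis, had 54.9, 96.5 and 92.0 RPKM in HFD and 14.1, 96.2 and 47.8 RPKM in LYC. LYC2 was level with the highest HFD library and LYC1 was the lowest of all 6, so the groups overlapped. Its log2 fold change was -0.66 (95% interval -1.89 to 0.57, adjusted p = 0.442, limma), and it was -0.01 without LYC1 and -1.20 without LYC2. Srebf2 (chromosome 15), which encodes the SREBP-2 form most tied to cholesterol genes, had 10.4, 15.6 and 15.5 RPKM in HFD and 4.99, 2.81 and 8.50 RPKM in LYC. These groups did not overlap, but at 9, 4 and 16 reads in LYC the log2 fold change of -1.02 (-1.96 to -0.08, adjusted p = 0.141, limma) missed the call. Without LYC2 it was -0.62. The Srebf1 to Srebf2 ratio was 5.30, 6.19 and 5.95 in HFD and 2.83, 34.2 and 5.63 in LYC. It was thus steady among HFD libraries and spread over a wide range among LYC libraries, with the highest value in LYC2, where Srebf2 had 4 reads. Reads from Srebf1 and its overlapping gene Rai1, and from Srebf2 and the microRNA gene Mir33 within it, may not be told apart by the authors' counting.

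**Figure D3:**
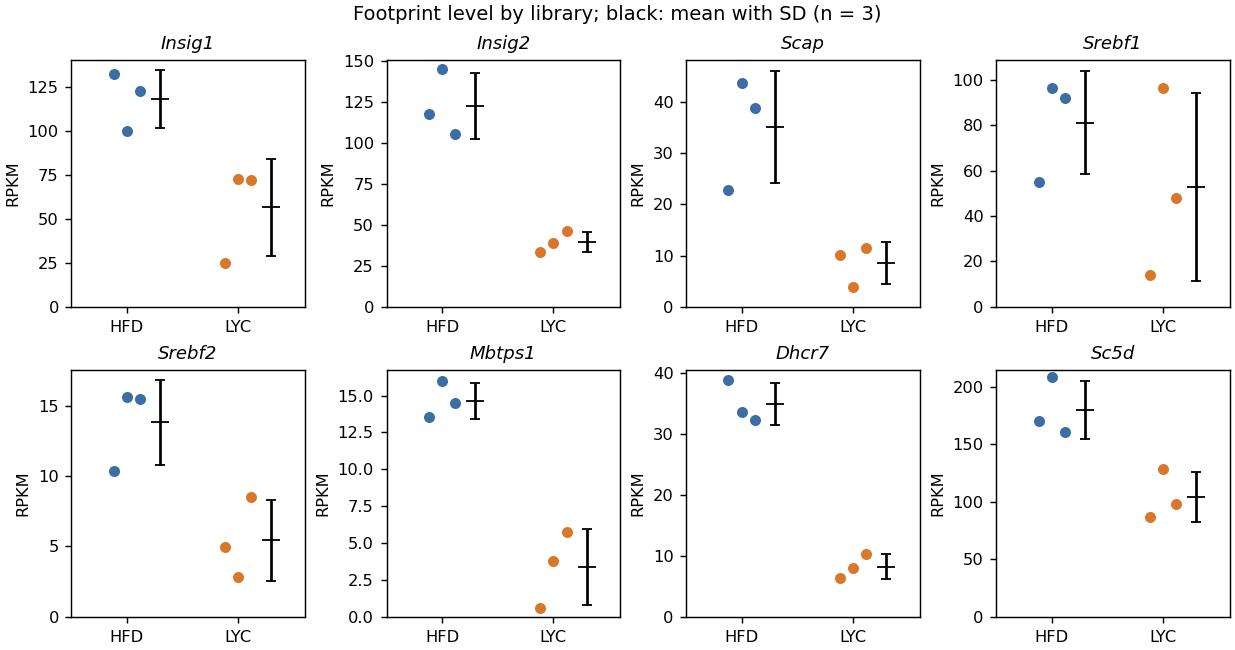
RPKM in each library (points) with the mean and SD (black, n = 3) for Insig1, Insig2, Scap, Srebf1, Srebf2, Mbtps1, Dhcr7 and Sc5d, each axis starting at 0. In these unscaled values HFD and LYC do not overlap for any gene shown except Srebf1, whose LYC libraries reach from 14.1 to 96.2 RPKM.

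In the early steps no gene passed the thresholds. Hmgcs1, which condenses acetoacetyl-CoA with acetyl-CoA, had 105, 107 and 90.5 RPKM in HFD and 58.8, 48.5 and 61.1 RPKM in LYC. The groups were separate, but the scaled log2 fold change was -0.55 (95% interval -1.11 to 0.01, adjusted p = 0.172, limma). Pmvk, the phosphomevalonate kinase, was the gene with the highest log2 fold change, 1.03 (0.13 to 1.92, adjusted p = 0.126, limma). It had 26.3, 16.0 and 40.4 RPKM in HFD and 36.3, 59.2 and 39.7 RPKM in LYC, where HFD3 lay inside the LYC range. Pmvk was called in 1 of 20 alternatives, without HFD3, with a log2 fold change of 1.36, and it was 0.58 without HFD2. Fdps, the farnesyl diphosphate synthase, had 99.7, 75.7 and 126 RPKM in HFD and 146, 103 and 103 RPKM in LYC. Its log2 fold change was 0.52 (-0.25 to 1.29), and between 0.22 and 0.72 with a library left out. Acat2, the cytosolic thiolase, Idi1, the isopentenyl diphosphate isomerase, and Fdft1, the squalene synthase, had log2 fold changes of -0.04 (-0.61 to 0.52), -0.08 (-0.94 to 0.78) and -0.33 (-1.08 to 0.42). That of Fdft1 was -0.62 without LYC1 and -0.14 without LYC2. Idi1 ranged within LYC from 20.2 RPKM in LYC2 to 44.2 RPKM in LYC1. Mvk and Mvd, the mevalonate kinase and decarboxylase, had at most 3 reads in any LYC library, and Ggps1, which makes the geranylgeranyl diphosphate used to lipidate proteins, had 0, 0 and 4.

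The late steps, from squalene to cholesterol, held Dhcr7, the gene with the smallest p among the 24 tested in the main limma fit. With edgeR and with DESeq2 on recovered reads, the p of Insig2 was smaller than that of Dhcr7. Dhcr7 (chromosome 7) had 38.8, 33.6 and 32.3 RPKM in HFD and 6.30, 7.99 and 10.3 RPKM in LYC. The HFD and LYC libraries were each close together and far from the other group, with a mean 4.25 times higher in HFD. The LYC values rest on 7, 7 and 12 reads, and the highest upper bound of their 95% exact Poisson intervals, 18.1 RPKM in LYC3, is below the lowest HFD library. The log2 fold change of Dhcr7 was -1.72 (standard error 0.28, 95% interval -2.36 to -1.07, adjusted p = 0.009, limma). An exact permutation test of a single gene with 3 libraries against 3 cannot go below p = 0.1, the value found for each of the 16 genes without overlap.

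Sc5d, which makes the 7-dehydrocholesterol that Dhcr7 reduces, had 171, 208 and 161 RPKM in HFD and 86.8, 129 and 98.2 RPKM in LYC. Its log2 fold change of -0.50 (-0.98 to -0.02, adjusted p = 0.154, limma) missed the call. The ratio of Dhcr7 to Sc5d was 0.228, 0.161 and 0.201 in HFD and 0.0726, 0.0621 and 0.105 in LYC, so that Dhcr7 was lower relative to Sc5d in every LYC library than in any HFD library. The pair was chosen after its values were seen, and its exact permutation p was 0.1, the smallest possible, with an adjusted p of 0.3 over the 6 ratios computed. The same p values were found for the ratio of Scap to Srebf2, which was 2.50 ± 0.302 in HFD and 1.58 ± 0.399 in LYC. The ratios of Insig1 to Scap and of Insig2 to Scap overlapped between the groups.

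Tm7sf2, a sterol C14-reductase, had 63.2, 60.0 and 70.5 RPKM in HFD and 30.9, 6.52 and 37.7 RPKM in LYC. The groups were separate, but LYC2 stood well below the other LYC libraries on 3 reads, and the log2 fold change of -1.36 (-2.74 to 0.03, adjusted p = 0.175, limma) missed the call. Without LYC2 it was -0.54. Sqle, the squalene epoxidase and a rate-limiting step, was also lowest in LYC2, with 17.8, 16.8 and 27.5 RPKM in HFD and 14.8, 2.34 and 13.2 RPKM in LYC. Only 2 reads stand behind the LYC2 value, and the log2 fold change of Sqle was -0.95 with LYC2 (-2.39 to 0.49) and -0.15 without it. LYC2 was the lowest of the LYC libraries, after scaling, for 16 of the 24 genes, and HFD2 the lowest of the HFD libraries for 15. Cyp51, the lanosterol 14-demethylase, had 25.7, 20.3 and 28.4 RPKM in HFD and 14.6, 8.86 and 13.9 RPKM in LYC. Its log2 fold change was -0.68 (-1.48 to 0.12), and -0.40 without LYC2. Hsd17b7, a 3-ketosteroid reductase, had 16.9 to 21.7 RPKM in HFD and 9.02 to 10.5 in LYC, with a log2 fold change of -0.58 (-1.24 to 0.08). Nsdhl and Ebp are encoded on the X chromosome, the former acting in C4 demethylation and the latter as the sterol isomerase. Their log2 fold changes were -0.36 (-1.03 to 0.31) and -0.32 (-0.92 to 0.27), and -0.19 and -0.16 without LYC2. Msmo1, the C4 methyl sterol oxidase, gave -0.12 (-0.81 to 0.58). Lss was the only late enzyme with a positive log2 fold change, 0.49 (-0.20 to 1.18), on 13 to 19 reads in LYC. Tm7sf2 overlaps Vps51 and Lss overlaps 4930483K19Rik in the annotation. Among the other genes, Fdft1 overlaps Ctsb and Gm51283, Npc1 overlaps Rmc1, and Mbtps2 overlaps Yy2. Acat2, Mvd, Fdps and Insig1 overlap Gm20591, Gm51557, Gm22935 and Gm35223, in that order. Whether the counting used strand is not given in the sources used here.

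Summed over a role as unscaled RPKM, the 10 late enzymes had 504 ± 10.5 in HFD and 284.8 ± 34.96 in LYC. The 8 early enzymes summed to 398 ± 19.7 RPKM in HFD and 349 ± 17.0 RPKM in LYC. The 7 control genes summed to 388 ± 33.2 RPKM in HFD and 167 ± 69.7 RPKM in LYC. Before scaling all 3 sums were lower in every LYC library than in any HFD library. The hepatocyte marker sum was lower in LYC as well, and its part in these sums was not tested. TMM factors, which raise LYC relative to HFD, were not applied to the sums. In the scaled fit, 2 of the 6 tested early enzymes had log2 fold changes above 0 and 4 below, with a median of -0.06. The lower early sum is therefore stated before scaling only. Of the late enzymes 1 was above 0 and 9 below, and of the tested control genes 0 and 6.

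Of the transport genes, Npc1, which exports cholesterol from lysosomes, had 25.1, 38.7 and 30.4 RPKM in HFD and 13.6, 13.6 and 20.5 RPKM in LYC. All LYC libraries were below HFD, and the log2 fold change of -0.67 (-1.31 to -0.03, adjusted p = 0.157, limma) missed the call. Stard4, a cytosolic sterol carrier, had 25.2, 22.3 and 15.8 RPKM in HFD and 22.5, 17.0 and 18.3 RPKM in LYC. Its groups overlapped and its log2 fold change was 0.16 (-0.54 to 0.86).

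Leaving out each library in turn separated the 4 genes that fell. Insig2 was called each time, with log2 fold changes from -1.43 to -1.24, and so was Dhcr7, from -1.88 to -1.61. Scap lost the call without HFD2 (-1.65) and without HFD3 (-1.60), and went to -1.21 without LYC2, where it was still called. Mbtps1 lost the call without HFD1, HFD2, HFD3 or LYC2, and ranged from -2.32 without LYC3 to -1.28 without LYC1. Only 2 genes were called lower without HFD2 or without HFD3.

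**Figure D4:**
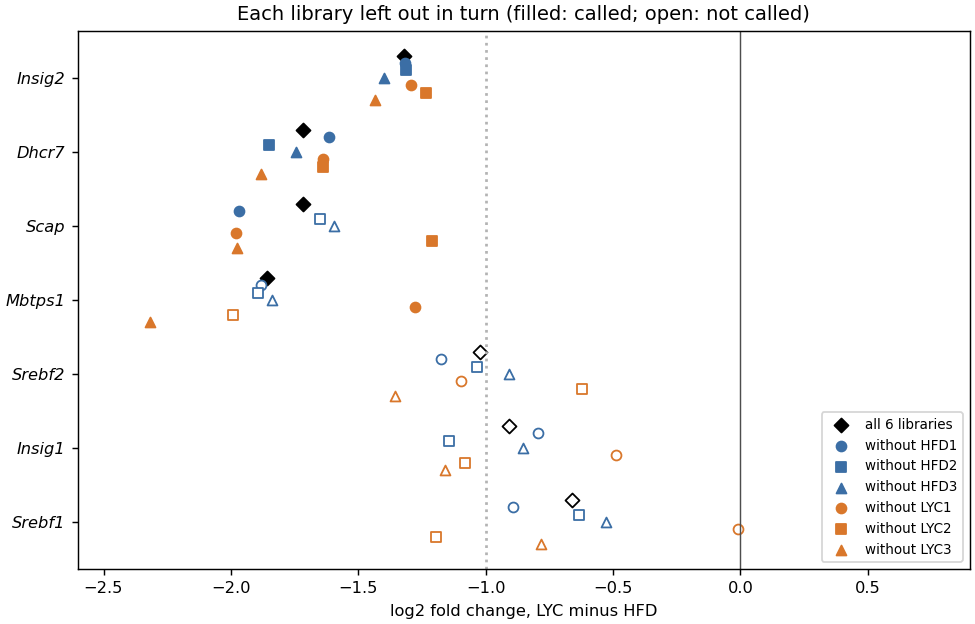
Log2 fold change of 7 genes with all 6 libraries (diamonds) and with each library left out (blue for HFD, orange for LYC), filled where the gene was called. Insig2 and Dhcr7 stay filled throughout, Scap and Mbtps1 open in some fits, and Srebf1 spreads from -1.20 to -0.01.

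In the second table, edgeR's quasi-likelihood test on the deposited counts covered 24 of the 29 genes and called the same 4 lower, Dhcr7 (log2 fold change -1.79, adjusted p = 0.002), Insig2 (-1.31, adjusted p = 0.002), Scap (-1.68, adjusted p = 0.005) and Mbtps1 (-1.79). Of its 5921 genes tested, 7.33% were called lower and 9.31% higher. No gene of the 29 was called higher there. As these counts come from the same libraries, they repeat the calls in another unit and add no replicate.

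Other genes of the pathway were read from fixed lists, in the same fit. Among the genes of SREBP transport and sterol-regulated degradation, which bring SCAP to the Golgi in COPII vesicles and remove INSIG and reductase proteins, 1 of 17 tested was called higher and 0 lower, near the 6.84% called higher over all genes. The gene called was Sec23a, a COPII coat subunit, at 24.1 to 33.0 RPKM in HFD and 37.8 to 71.2 RPKM in LYC (log2 fold change 1.20, adjusted p = 0.029, limma). In the list of electron donors of the sterol oxidases (Cyp51, Sqle, Msmo1 and Sc5d), 2 of 4 passed the thresholds upwards and 1 downwards, beside 6.84% and 6.39% of all genes. Por, the cytochrome P450 reductase, had 29.9 to 44.7 RPKM in HFD and 108 to 154 RPKM in LYC (log2 fold change 2.07, adjusted p = 0.002, limma). Cyb5a, the microsomal cytochrome b5, rose by a log2 fold change of 2.00, from 472 ± 69.2 to 1561 ± 303 RPKM, while Cyb5b, the mitochondrial form, fell from 129 ± 27.2 to 46.0 ± 3.55 RPKM (-1.16). Thus Por and Cyb5a rose, while the 4 oxidases had log2 fold changes between -0.95 and -0.12 and none was called.

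The lipogenic genes that SREBP-1c drives were called higher in 2 of 11 tested and lower in 0, with a median of 0.46, beside 6.84% called higher over all genes. Srebf1 itself was at -0.66. The RPKM sums of the list overlapped, at 3359 to 6210 in HFD and 2601 to 5299 in LYC, and its most abundant gene, Scd1, named after its values were seen, was at -0.45. Thrsp, a lipogenic regulator, rose from 152 ± 20.6 to 846 ± 172 RPKM (log2 fold change 2.75) and Elovl6, a fatty acid elongase, from 25.6 ± 9.77 to 47.7 ± 13.9 RPKM (1.18). The genes of the oxysterol and LXR response were called lower in 3 of 6 tested and higher in 0, beside 6.39% called lower over all genes. Log2 fold changes in this list were above 0 for 2 of the 6, the highest at 1.30, and below 0 for 4. Nr1h3, which encodes the liver oxysterol receptor LXR alpha and is known to act on Srebf1, had 36.6 to 50.7 RPKM in HFD and 7.42 to 18.2 RPKM in LYC (log2 fold change -1.61, adjusted p = 0.024, limma). Nr1h2, which encodes LXR beta, and Lpcat3, a phospholipid-remodelling LXR target, were also called lower, with adjusted p of 0.053 and 0.064. Lpcat3 gave -1.19, while Nr1h2 rests on 49, 155 and 38 reads for HFD, against 0, 1 and 5 for LYC. Nr1h2 reached the filter's limit in 0 LYC libraries and Nr1h3 in 1, so both passed the filter through HFD and the count of 3 is no support for the list. Nr1h3 overlaps Acp2 and Lpcat3 overlaps Emg1 in the annotation.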

How the data were processed

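Ribo-seq libraries of HFD and LYC livers (3 each) were analysed. Per the labels and the study's methods, the authors used cutadapt and Bowtie2 for cleaning, STAR for alignment to mm10 and FANSE2 for quantification, and deposited RPKM per gene. For the samples labelled RNA-seq, they deposited counts and RPKM. Versions are not given in the sources used here. Reads behind the RPKM were recovered from the step that 1 read is worth, with gene lengths implied by the second table (71.9% to 72.4% of values whole within 0.02 of a read) or, for 4624 of 15753 genes above 0, fitted to the gene. Of 25033 entries, 26 carry names turned into dates and 4 with a shared name did not enter the tests. Genes passing edgeR's filterByExpr on recovered reads were compared with limma (mean-variance trend, two-sided, Benjamini-Hochberg adjustment) on log2(RPKM / TMM factor + 1), so fold changes of low genes are understated. Counts of the second table were fitted with edgeR, and the scripts were tested on simulated data. Same-numbered libraries of the groups had deviations correlated at 0.108, 0.029 and 0.009, so the numbers were not taken to pair them. Alternatives were other scalings, filters, pseudocounts, thresholds and tools (edgeR and DESeq2 on recovered reads), a gene length trend, a replicate block and each library left out. The fits covered all genes, and all 29 members are reported. A gene of a context or marker list is named where it was called. Some that were not called are named as well, namely hepatocyte and intestinal markers, Scd1, and the main genes of the cholangiocyte and acinar sums. The members and lists were chosen with earlier results of these data known. Poisson intervals and the bound for a count of 0 cover counting error only. DESeq2 1.42.0, edgeR 4.0.16 and limma 3.58.1 were run in R 4.3.3, and the summaries in Python 3.11.15 with scipy 1.17.1.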

Additional observations from a re-analysis of the deposited data

How the results depend on the processing

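Insig2 and Dhcr7 were called under all 20 alternatives, with log2 fold changes of -1.60 to -1.24 and -1.98 to -1.39. Scap was called under 17 and Mbtps1 under 14 of them, and both stayed below 0. Apart from left-out libraries, both lost the call at an unadjusted p below 0.001, where 2 genes were called lower, and Mbtps1 also without a filter on low reads. Leaving out each library gave 2 to 4 genes called lower and 0 to 1 higher. Over all genes, library totals gave 235 higher and 647 lower, a pseudocount of 5 gave 226 lower, no filter gave 718 lower, and a p below 0.001 gave 193 higher and 102 lower. Left-out libraries gave 143 to 703 lower and 268 to 574 higher. In the second table no filter gave 1 gene of the 29 higher (Pmvk), with 856 higher and 671 lower in all, and left-out libraries gave 0 to 1 of the 29 higher and 4 to 5 lower. The fifth was Mbtps2 without LYC2, where the remaining LYC libraries have 0 reads, or Srebf2 without LYC3 (-1.44). Among genes that were not called, the sign reversed for Idi1 (0.0353 with edgeR, 0.0426 with DESeq2, -0.47 to 0.24 with a library left out), Stard4 (-0.11 with library totals, -0.0295 to 0.32), Acat2 (-0.21 to 0.0949) and Msmo1 (-0.32 to 0.19). The cause of these shifts was not tested. With the replicate block, 4 genes of the 29 were called lower and 0 higher, and 393 genes in all were called higher and 352 lower, which changed no call among the 29. The LYC depth, 311050 to 412116 reads, limits what can be said of genes with few reads, such as Mbtps1, Mbtps2, Ggps1, Mvk and Mvd. TMM factors on all listed genes were added after seeing the data and left 4 genes lower.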

Other observations

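Other sterol genes were read from the same fit. Of 12 tested genes of lysosomal and intracellular sterol transport, 0 were called, by limma, and the median log2 fold change was 0.09. Of 4 tested genes of sterol esterification 0 were called, and 2 of the 4 reached the filter's limit in 3 HFD but only 1 LYC library, so no median is given. In the non-sterol branch that uses farnesyl and geranylgeranyl groups, 1 of 7 tested genes was called higher and 0 lower, beside 6.84% and 6.39% over all genes. The gene was Rabggtb, the beta subunit of the geranylgeranyl transferase of Rab proteins, with 39.4 to 50.4 RPKM in HFD and 166 to 539 RPKM in LYC (log2 fold change 2.92, adjusted p = 0.005). Rabggtb overlaps the small nucleolar RNA genes Snord45b and Snord45c in the annotation, and reads from these cannot be told apart from its own in the table.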
